A study of Mus musculus with 16 samples.

Results

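The genes encoding the proteins of the cytosolic ribosome were followed in gastrocnemius, a muscle of the calf, of mice fed a high-fat diet with rosiglitazone, with or without n-3 LC-PUFA. Members were all array probes, control spots aside, whose gene name is Rpl or Rps followed by a number and, in some, a letter and a further number, together with Rplp0, Rplp1, Rplp2 and Rpsa. This gave 81 genes with 135 probes, of 27745 gene names with 41174 probes on the array. Of the 135 probes, 125 passed the filter on weak spots, and each of the 81 genes kept at least 1 probe. The filter used the mean over all arrays and not the difference between the groups. Names were checked against RefSeq accessions, where 112 probes had the same symbol, 2 probes of Rps3a were listed as Rps3a1, and 21 accessions were not in the table. The paralogs Rpl10l and Rpl39l have no probe of that name on the array.

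All animals were male C57BL/6N mice, 3 months old at the start and kept for 8 weeks on a high-fat diet based on corn oil, in which lipids made up about 35% of weight. The 8 cHF+ROSI mice received 10 mg rosiglitazone, a drug that activates PPARγ, per kg of this diet. In the diet of the 8 cHF+F+ROSI mice, which held the same dose, a concentrate of n-3 LC-PUFA with 46% DHA and 14% EPA also replaced 15% of the lipids. Before sampling, mice of both groups were fasted for 10 hours and then re-fed Chow overnight, so both groups carried the drug, the high-fat diet and the switch to Chow, and by diet they differed in the added n-3 LC-PUFA. The methods give 2 animals per cage, and which mice shared a cage was not analysed here.

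Each mouse was measured on a two-colour array as Cy5 against a common Cy3 reference pool, and values are log2(Cy5/Cy3), so 0 means as much signal as in the pool. The labels of these samples list mice on a higher rosiglitazone dose in the pool, while the methods mention such mice for the pool of an earlier round of arrays. The 16 arrays lay on 4 slides, with 2 mice of each group per slide. On each slide, positions 1 and 3 held cHF+ROSI arrays, and positions 2 and 4 held cHF+F+ROSI arrays. Position and diet therefore cannot be told apart. Median Cy5 signal over background was 2.33 in cHF+ROSI mouse 1 and between 3.02 and 3.64 in the other cHF+ROSI mice, and it was between 2.98, in cHF+F+ROSI mouse 2, and 3.46 in the cHF+F+ROSI mice. No member spot was saturated. The number of arrays limits the precision. A gene with several probes is represented by its brightest probe unless stated otherwise, and a log2 fold change is the mean of the cHF+F+ROSI mice minus that of the cHF+ROSI mice.

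Ribosomal proteins and ribosomal RNAs are assembled in the nucleolus into a small subunit, which reads the mRNA, and a large subunit, which joins the amino acids. Most of the proteins are needed in equal amounts, and the mRNAs of ribosomal proteins are among the most abundant of most cells, muscle fibres included. Most of these mRNAs begin with a C followed by an uninterrupted run of C and T, the TOP motif, through which their translation follows nutrient supply and mTORC1 activity, so the level of an mRNA does not give the rate at which the protein is made.

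The starts of 5 member genes are shown because the results below return to them: Rps21 and Rpl35 were among the genes lower in cHF+F+ROSI mice, Rpl28 was among the higher ones, Rps6 is the substrate of S6 kinase, and Rps27 has a paralog among the members. Each line holds 30 bases of RefSeq sequence, build GRCm38.p6, read 5′ to 3′ on the strand of the gene, with the annotated start at the 16th base, or the base next to it, and the run of C and T in capitals.
Rps21 (chr2:180257364-180257393, + strand): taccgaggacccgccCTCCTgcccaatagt
Rpl35 (chr2:39005117-39005146, - strand): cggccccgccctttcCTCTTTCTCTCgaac
Rpl28 (chr7:4792950-4792979, + strand): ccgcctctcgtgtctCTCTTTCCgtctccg
Rps6 (chr4:86857353-86857382, - strand): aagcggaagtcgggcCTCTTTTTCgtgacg
Rps27 (chr3:90213634-90213663, - strand): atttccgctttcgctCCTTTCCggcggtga
Rps21 had a run of 5 bases and Rpl35 a run of 11. A run that starts with C at the annotated start, or 1 base to either side of it, and holds at least 5 bases C or T on the strand of the gene was found in 19 of the 61 member genes with a start in the table, or 31.1%, against 2030 of all 27025 genes in it, or 7.51%. The search depends on the annotated base being the true start. The 19 genes with a run had a median log2 fold change of -0.07, with 2 of them lower at an unadjusted p up to 0.05, and the 42 without had -0.10, with 14 lower. Of all genes tested, 4.66% were lower.

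After loess, 64 of the 81 ribosomal protein genes had a lower mean in cHF+F+ROSI than in cHF+ROSI mice, 18 of them at an unadjusted p up to 0.05, and 40 of 81 had one in the authors' normalized table. The median log2 fold change of the 81 genes was -0.07, a level 4.97% lower, where the median of all 13575 genes tested was 0.00, and in the authors' normalized table the members' median was 0.00 as well. The fold change was positive for 17 of the 81 genes, and 51.4% of all genes had a negative one. In limma, 18 members were lower and 2 higher at an unadjusted p up to 0.05, or 24.7% of the members, where 8.37% of all genes were called, 4.66% lower and 3.71% higher. No member passed an adjusted p of 0.05, as did 0.0155% of all probes, and the smallest adjusted p was 0.32, for Rps21. All changes were small: fold changes ran from -0.33 for Rps7 to 0.25 for Rps29, and the middle of the distribution, between the quartiles, from -0.13 to -0.03. Values of the groups overlapped for each of the 81 genes by their brightest probe, where 0.0773% of all probes did not overlap.

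**Figure D1:**
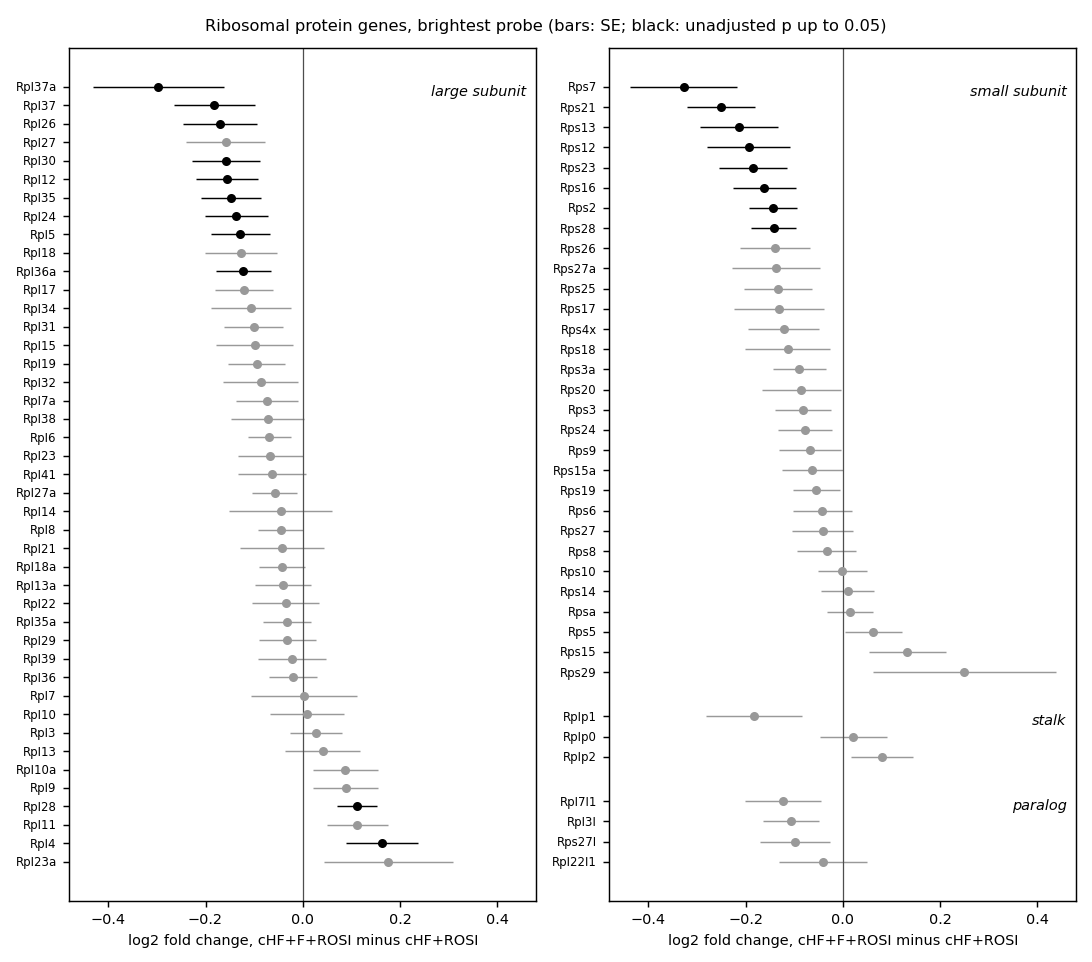
Log2 fold change of 80 of the 81 ribosomal protein genes by their brightest probe, cHF+F+ROSI minus cHF+ROSI, with the SE of limma as bars and genes with an unadjusted p up to 0.05 in black, in panels by subunit. In the values plotted, 63 of 80 genes lie left of 0, from -0.33 for Rps7 to 0.25 for Rps29; in the authors' normalized table the median of the members was 0.00.

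How many members were called depended on the scaling of the arrays. Loess within arrays gave 18 lower members, 20 without background correction and 12 with the processed signals of the scanner software. Median centring in place of loess left 4 lower and 0 higher, and scale normalization after loess 1 and 0. The Cy5 channel alone gave 2 lower and 2 higher, and there were 2 lower and 3 higher in the authors' normalized table, so lower calls did not outnumber higher ones in either. The share of members called lower was 22.2% with loess and 4.94% with median centring, where 3.96% and 2.55% of all probes were. Without background correction it was 24.7%, and 14.8% with the processed signals, where 4.91% and 4.75% of all probes were lower. It was 1.23% with scale normalization, 2.47% with Cy5 alone and 2.47% in the authors' table. Of all probes 2.79%, 2.9% and 3.6% were lower there, so no excess of members was seen. Member shares count genes by their brightest probe and the others count probes, which limits the comparison. The median stayed negative in each of these except the authors' table, with values between -0.11 for median centring and -0.05 for the Cy5 channel alone, and the number of negative genes was 52 with scale normalization and 40 in the authors' table. Single mice mattered as well: without cHF+ROSI mouse 7, 9 members were lower, without cHF+F+ROSI mouse 4, 10, and without cHF+F+ROSI mouse 8, 11. In this order these were 11.1%, 12.3% and 13.6% of the members, where 4.31%, 3.51% and 3.26% of all probes were lower. Without the dimmest array of each group, cHF+ROSI 1 and cHF+F+ROSI 2, a setting chosen after the data were seen, 13 members were lower and 1 was higher, with a median of -0.06. Lower were then 16% of the members and 3.29% of all probes.

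**Figure D2:**
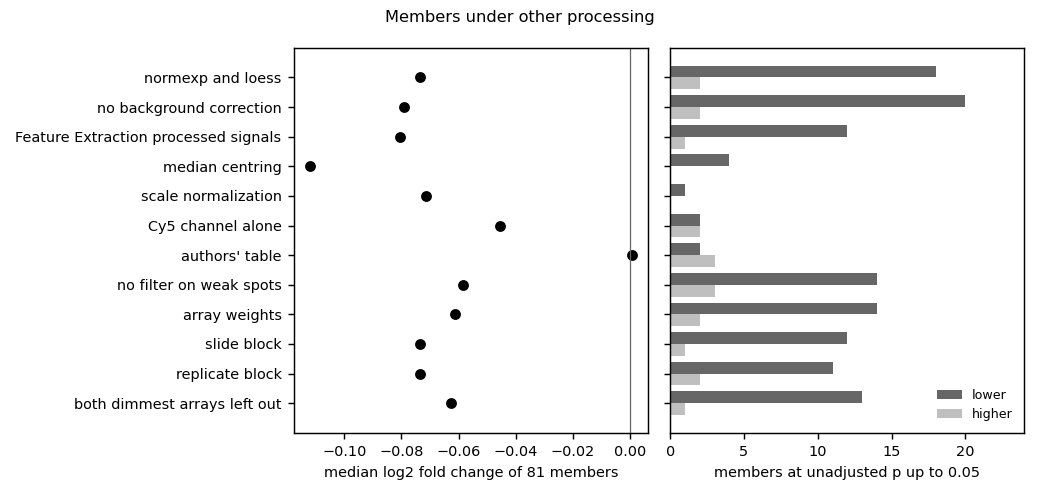
Median log2 fold change of the 81 members (left) and number of members lower (dark bars) and higher (light bars) at an unadjusted p up to 0.05 (right) under each processing, where the first row holds the values of the report. The median was below 0 in all rows but the authors' table, and the number of lower members ran from 1 with scale normalization to 20 without background correction. There were 2 lower and 3 higher members in the authors' table.

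Of the 31 small subunit genes, 9 were lower and 0 higher at an unadjusted p up to 0.05, and 26 had a negative fold change. The calls were 29% of these genes, where 8.37% of all genes were called and 51.4% had a negative fold change. The median of the 31 genes was -0.09, and it stayed negative in every processing tried, including the authors' table, where it was -0.03. Among the genes called were Rps2, Rps7, Rps12, Rps13, Rps16, Rps21, Rps23 and Rps28. Each of these except Rps12 kept its call when any single mouse was left out, and Rps12 lost it without cHF+ROSI mouse 4, 5 or 7.

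Rps21 takes part in the late maturation of the small subunit, and its start is printed above. In cHF+ROSI mice its lowest log2 ratio was -0.35, the median -0.22 and the highest 0.11, in mouse 1. In cHF+F+ROSI mice the lowest was -0.72, in mouse 2, the median -0.42 and the highest -0.33. These 2 mice have the dimmest array of each group, and without cHF+ROSI mouse 1 the fold change was -0.21. The 8 cHF+F+ROSI mice all lay below the mean of the cHF+ROSI mice, and the groups overlapped only in that the highest cHF+F+ROSI mouse lay just above the lowest cHF+ROSI mice. The log2 fold change was -0.25 (SE 0.07), with an adjusted p of 0.32 in limma and an exact two-sided permutation p of 0.000622, where 0.0001554 is the smallest that 8 against 8 mice can give. Its probe lies at chr2:180187408-180187639 of build mm8, and the other 2 probes of the gene, with fold changes of -0.36 and -0.34, were also lower at an unadjusted p up to 0.05. The difference was negative within each of the 4 slides, from -0.49 on slide 1, which holds both of the dimmest arrays, to -0.05 on slide 3.

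Rps7, a small subunit protein that also binds the p53 regulator Mdm2, had the largest fold change of all members by size. In cHF+ROSI mice its log2 ratio was lowest at -0.72, had a median of -0.50 and was highest at 0.16, in mouse 1. In cHF+F+ROSI mice it was lowest at -1.20, in mouse 2, had a median of -0.75 and was highest at -0.49. All cHF+F+ROSI mice lay below the cHF+ROSI mean, but the groups overlapped over much of their range once mouse 1 and mouse 2 are set aside. The log2 fold change was -0.33 (SE 0.11, adjusted p 0.49 in limma, exact permutation p 0.005905), and it was -0.18 without the dimmest array of each group. Differences within slides were negative on 3 of the 4 slides and 0.01 on slide 3.

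Rps21 and Rps7 kept an unadjusted p up to 0.05 in limma under every other processing except scale normalization, where their p was 0.13 and 0.21. In the authors' table their log2 fold changes were -0.18 and -0.26, and they were the 2 members called lower there.

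Rps28, which lies near the site where mRNA leaves the small subunit, varied little between mice. In cHF+ROSI mice its log2 ratio ran from 0.16 over a median of 0.30 to 0.43, and in cHF+F+ROSI mice from 0.03 over a median of 0.12 to 0.23. All 8 cHF+F+ROSI mice were below the cHF+ROSI mean, and the 3 lowest cHF+ROSI mice overlapped with them. The log2 fold change was -0.14 (SE 0.05, adjusted p 0.46 in limma, exact permutation p 0.005128). Its 3 probes had fold changes of -0.14, -0.10 and -0.08, and its differences were negative within all 4 slides.

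Rps2, at the channel through which mRNA enters, ran from 0.04 over a median of 0.10 to 0.18 in cHF+ROSI mice. In cHF+F+ROSI mice it ran from -0.17 over a median of -0.03 to 0.15, the last in mouse 2, which was the only mouse of its group above the cHF+ROSI mean. The log2 fold change was -0.14 (SE 0.05, adjusted p 0.50 in limma, exact permutation p 0.007304), and it was negative within all 4 slides. The other kept probe of Rps2 had a fold change of -0.01, so the difference was seen with 1 probe only.

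**Figure D3:**
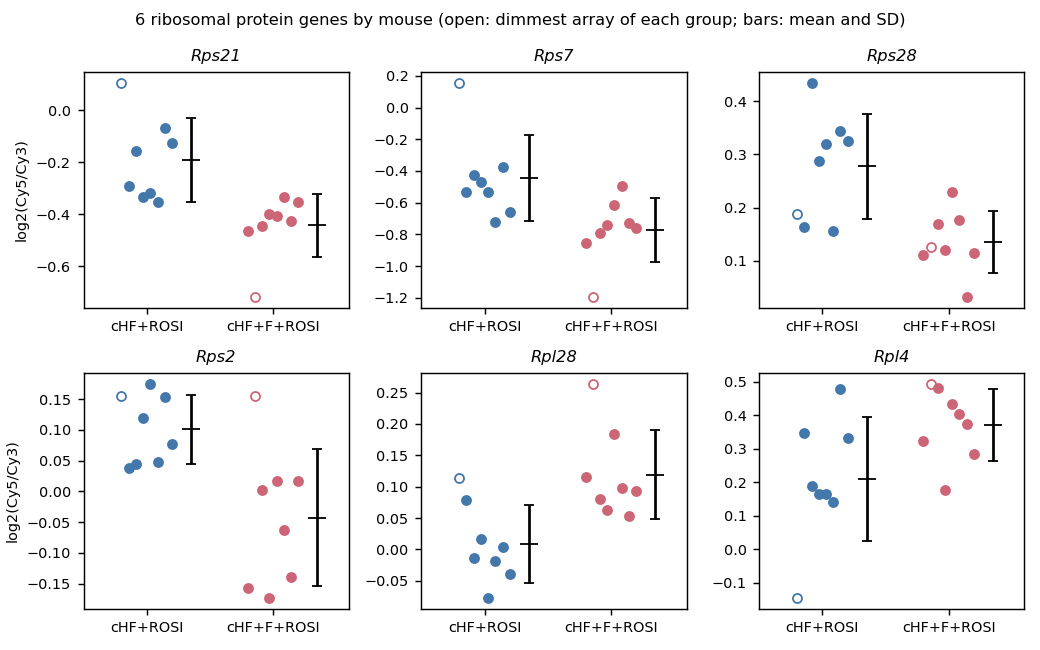
Log2(Cy5/Cy3) of 6 ribosomal protein genes in each of the 16 mice, with group mean and SD as bars and open symbols for cHF+ROSI mouse 1 and cHF+F+ROSI mouse 2, the dimmest array of each group. For Rps7 these 2 mice are the extremes at 0.16 and -1.20, and they are also the extremes for Rps21. The groups overlap in all 6 genes, and each panel has its own vertical scale.

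Rps12, Rps13, Rps16 and Rps23, also called in the small subunit, were lower by similar amounts. Rps13 had -0.21 (SE 0.08) by its brightest probe and 0.04 by its other probe, and Rps12 had -0.19 (SE 0.09), which was -0.12 without cHF+F+ROSI mouse 2. Rps23, which sits at the decoding centre and affects the accuracy of translation, had -0.18 (SE 0.07). Rps16, whose tail reaches the tRNA in the small subunit, had -0.16 (SE 0.06). For Rps13 and Rps16 the highest value of all was that of cHF+ROSI mouse 1, and without it their fold changes were -0.14 and -0.11. Under the scaling alternatives these 4 genes mostly lost their calls, and in the authors' table, and with Cy5 signals alone, each was above an unadjusted p of 0.05.

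Among the small subunit genes not called, Rps29 had the largest positive fold change, 0.25 (SE 0.19), but it rested on 2 mice. Its log2 ratio was 2.60 in cHF+F+ROSI mouse 2, while the next mouse of that group had 1.54, and without it the fold change was 0.09. In cHF+ROSI mouse 1 it was 0.47, where the next mouse had 1.102, and without both mice the fold change was -0.02. Rps6, the substrate of S6 kinase, had -0.04 (SE 0.06, adjusted p 0.92), which was 0.02 with Cy5 alone and 0.03 in the authors' table. Rps27a, made as a fusion with ubiquitin, had -0.14 (SE 0.09), Rps4x, encoded on the X chromosome, -0.12 (SE 0.07), and Rpsa, which is also known as a laminin receptor, 0.01 (SE 0.05).

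Of the 43 large subunit genes, 9 were lower and 2 higher at an unadjusted p up to 0.05, and 33 had a negative fold change. This is 25.6% called, where 8.37% of all genes were called and 51.4% had a negative fold change. The median of the 43 genes was -0.06, and 0.01 in the authors' table. The lower genes were Rpl5, Rpl12, Rpl24, Rpl26, Rpl30, Rpl35, Rpl36a, Rpl37 and Rpl37a. Each of these calls was lost when at least 1 single mouse was left out. Without cHF+ROSI mouse 7, only 1 large subunit gene was lower, and 12 were without cHF+F+ROSI mouse 5.

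Rpl37a had the largest fold change of the large subunit, -0.30 (SE 0.13, adjusted p 0.65 in limma, exact permutation p 0.002486). In cHF+ROSI mice its log2 ratio was lowest at -0.69, had a median of -0.50 and was highest at 0.60, in mouse 1, where the next mouse had -0.37. In cHF+F+ROSI mice it ran from -0.77 over a median of -0.68 to -0.53. The groups overlapped, and without cHF+ROSI mouse 1 the fold change was -0.16. Rpl37 had a similar spread, with -0.16 in cHF+ROSI mouse 1 and -0.55 in the next, and its fold change of -0.18 (SE 0.08) was -0.11 without that mouse.

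The other lower genes of the large subunit had fold changes between -0.17 and -0.12. Rpl26, which also binds the mRNA of p53, had -0.17 (SE 0.08) and Rpl30 -0.16 (SE 0.07). Rpl12, at the base of the stalk that recruits translation factors, had -0.16 (SE 0.06), with all 8 cHF+F+ROSI mice below the cHF+ROSI mean. Rpl35, near the exit of the nascent chain, had -0.15 (SE 0.06), and all 8 mice were again below that mean. Rpl24, which forms a bridge to the small subunit, had -0.14 (SE 0.06), and its other probe -0.12. Rpl36a had -0.12 (SE 0.06), and its 3 probes were all negative. With scale normalization Rpl5, Rpl24, Rpl36a and Rpl37 had small positive fold changes, between 0.01 and 0.08.

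Rpl5 and Rpl11 bind the smallest ribosomal RNA together and, outside the ribosome, inhibit Mdm2. They had fold changes of opposite sign. Rpl5 ran from -0.46 over a median of -0.32 to -0.17 in cHF+ROSI mice and from -0.60 over -0.48 to -0.27 in cHF+F+ROSI mice, a fold change of -0.13 (SE 0.06, adjusted p 0.67 in limma). Rpl11 ran from 0.21 over 0.37 to 0.59 and from 0.34 over 0.49 to 0.69, a fold change of 0.11 (SE 0.06, adjusted p 0.72), which was -0.17 with scale normalization. The difference between the 2 genes was not tested.

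The 2 members higher in cHF+F+ROSI mice belong to the large subunit. Rpl28, whose start is printed above, ran from -0.08 over a median of 0.00 to 0.11 in cHF+ROSI mice and from 0.05 over 0.10 to 0.26 in cHF+F+ROSI mice. All 8 cHF+F+ROSI mice were above the cHF+ROSI mean, and the groups overlapped through 2 cHF+ROSI mice. Its log2 fold change was 0.11 (SE 0.04, adjusted p 0.56 in limma, exact permutation p 0.003574), it was positive within all 4 slides, and no single mouse changed its call, although it was lost with the processed signals of the scanner software, median centring and scale normalization. Rpl4, which lines part of the exit tunnel, had 0.16 (SE 0.07), with 7 of 8 cHF+F+ROSI mice above the cHF+ROSI mean. Its lowest value, -0.14, was that of cHF+ROSI mouse 1, and without that mouse its fold change was 0.11 and no longer called. Rpl23a, where factors dock at the tunnel exit, had 0.18 (SE 0.13), but -0.07 by its other probe, -0.07 with scale normalization and -0.04 with the Cy5 channel alone.

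Other large subunit genes chosen for what they do had fold changes close to 0 over all 16 mice. Rpl3, at the site of peptide bond formation, had 0.03 (SE 0.05), Rpl10, which joins the large subunit late, 0.01 (SE 0.08), and Rpl39, in the exit tunnel, -0.02 (SE 0.07). The brightest probe of Rpl10, used here, is placed on chromosome 13, and its accession was not among those of RefSeq. The other Rpl10 probe, on the X chromosome and with the same symbol in RefSeq, had -0.04 (SE 0.08). Rpl13a, known for silencing inflammatory mRNAs when released from the ribosome, had -0.04 (SE 0.06), Rpl22 -0.04 (SE 0.07) and Rpl7 0.00 (SE 0.11). Rpl7 was -0.15 in cHF+ROSI mouse 1, where the next mouse of the group had 0.65, and without mouse 1 its fold change was -0.11 at an unadjusted p of 0.04983. Without both dimmest arrays it was -0.14 at an unadjusted p of 0.007274 (adjusted p 0.51 in limma). The signs of Rpl3, Rpl10, Rpl13a, Rpl22 and Rpl39 each turned under at least 1 alternative.

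The 3 stalk proteins, which recruit the GTPases of translation, did not share a direction, and 0 of 3 were called in limma. Rplp1 had -0.18 (SE 0.10, adjusted p 0.71), with 0.77 in cHF+ROSI mouse 1 and 0.50 in cHF+F+ROSI mouse 2 as the highest value of each group, and without both it had -0.17 at an unadjusted p of 0.0114. Rplp0 had 0.02 (SE 0.07) and was -0.04 without cHF+ROSI mouse 1. Rplp2 had 0.08 (SE 0.06) and was -0.34 with scale normalization.

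The 4 paralogs among the members had negative fold changes in the values used here, and 0 of 4 were called. Rpl3l, the form of Rpl3 that marks striated muscle, ran from -0.57 over a median of -0.35 to -0.17 in cHF+ROSI mice and from -0.72 over -0.43 to -0.33 in cHF+F+ROSI mice, with 7 of 8 below the cHF+ROSI mean. Its fold change was -0.11 (SE 0.06, adjusted p 0.71 in limma), against 0.03 for Rpl3, and it was 0.07 with scale normalization. Rpl7l1 had -0.12 (SE 0.08) by its brightest probe and 0.06 by its other probe. Rps27l, a target gene of p53, had -0.10 (SE 0.07) where Rps27 had -0.04 (SE 0.06). Rpl22l1 had -0.04 (SE 0.09), the same as Rpl22 to 2 decimals. Probes of near-identical copies may share signal, and the files do not show how much.

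Probes of the same gene did not always give the same sign. Of the 36 members with more than 1 kept probe, 22 had probes of a single sign and 14 had both signs, and 3 pairs of probes differed by more than 0.2 on the log2 scale. Over all 125 kept probes the median fold change was -0.07, with 22 probes lower and 2 higher, where 7.46% of all 19398 probes were called, 3.96% lower and 3.5% higher. Ribosomal protein probes are bright. Among the 850 probes with a mean log2 intensity over 14, the 74 member probes had a median fold change of -0.08 and the other 776 one of -0.01. The members are spread over the genome, with 14 genes having a probe on chromosome 7.

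The mean log2 ratio over the 81 members gives the position of each mouse. It was -0.02 ± 0.08 (SD, n = 8) in cHF+ROSI mice, with -0.12 as the lowest, -0.03 as the median and 0.11 as the highest. In cHF+F+ROSI mice it was -0.08 ± 0.06 (SD, n = 8), with -0.15, -0.10 and 0.01. The groups overlapped. The highest mouse was cHF+ROSI 7, which also had the highest mean of 75 mitochondrial ribosomal protein genes, 0.11, and of 42 proteasome genes, 0.09, and whether it moved the members through something common to the array was not tested. For the mitochondrial ribosomal proteins the group means were -0.01 ± 0.06 and 0.00 ± 0.05, and for the proteasome subunits -0.05 ± 0.07 and -0.05 ± 0.04 (SD, n = 8 each).

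Within slides, where 2 mice of each group can be compared, the members' median difference was -0.12 on slide 1, -0.05 on slide 2, 0.03 on slide 3 and -0.18 on slide 4. The difference was negative for 53, 53, 31 and 75 of the 81 genes. Slide 3 thus went the other way for most members, and slide 4, which holds cHF+ROSI mouse 7, had the largest shift. Of the 18 genes called lower, 9 were lower within all 4 slides. These genes were picked by their difference over the same arrays, so this count is not separate support. With the slide as a block, 12 members were lower, or 14.8%, where 3.88% of all probes were.

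**Figure D4:**
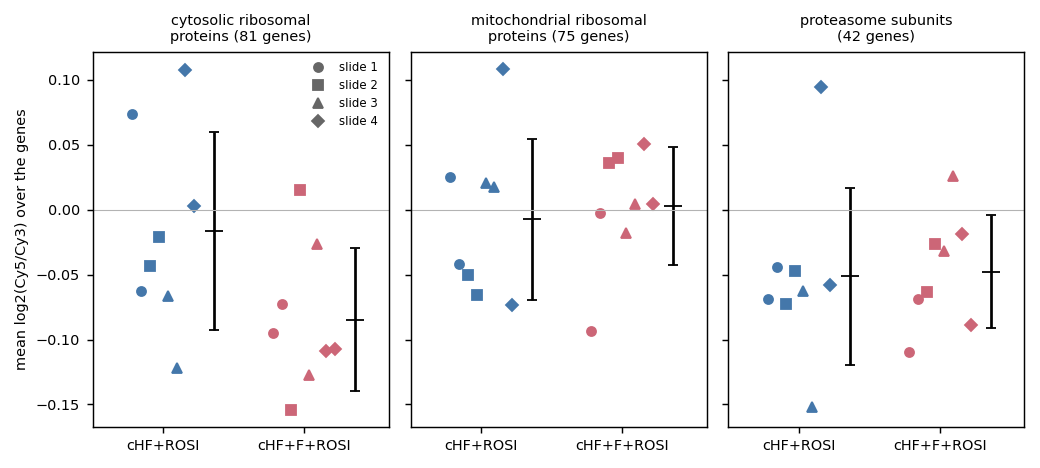
Mean log2(Cy5/Cy3) of each mouse over the cytosolic ribosomal protein, mitochondrial ribosomal protein and proteasome genes, with the mean and SD of each group of 8 mice as bars and the slide as the shape of the symbol. The cytosolic members average -0.02 in mice without and -0.08 in mice with n-3 LC-PUFA, with overlapping groups, and cHF+ROSI mouse 7 on slide 4 is the highest in all 3 panels.

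Ribosomal protein genes varied together between mice of the same group. After the mean of its group was taken from each value, the mean Pearson correlation over the 3240 pairs of members was 0.24, the median 0.28, and 71.0% of pairs were above 0. Over all genes the mean correlation was 0.00, a value that loess holds near 0 because it centres the log ratios of each array. For the members it was 0.27 within cHF+ROSI mice and 0.24 within cHF+F+ROSI mice, and 0.26 among large and 0.27 among small subunit genes. The median SD between mice was 0.14 for the members and also for all genes. It was 0.11 for mitochondrial ribosomal protein genes and 0.12 for proteasome genes. Correlations over 16 mice share the arrays, their slides and their normalization, and are given as a description. Mitochondrial ribosomal protein genes had 0.22 and proteasome genes 0.20, so correlation of this size was also found in other groups of genes encoding a large complex.

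Co-variation depended on cHF+ROSI mouse 1 in a particular way. In these deviations from the group mean, this array was the highest or the lowest of all 16 for 49 of the 81 members, the highest for 33 and the lowest for 16, and it carried 68.1% of the squared weight of the first principal component, which held 46.1% of the variance. Rps7, Rpl37a, Rpl37 and Rps13 were high on it, and Rpl7, Rps29, Rpl23a and Rplp0 were low. Without it the mean correlation rose to 0.33, and the number of members with a correlation above 0.5 to the mean of the others went from 48 to 60. Mitochondrial ribosomal protein genes also rose without this mouse, to 0.27, and proteasome genes to 0.25. This mouse has the dimmest array, and the part of that in its values was not tested. Without both dimmest arrays the mean correlation was 0.42. Scaling moved it further, to 0.66 with median centring, 0.51 in the authors' table and 0.09 with scale normalization. In the same order it was 0.64, 0.51 and 0.08 for mitochondrial ribosomal protein genes and 0.56, 0.49 and 0.08 for proteasome genes. For all genes it was 0.07, 0.03 and 0.01. Shifts of this kind were therefore not particular to the members.

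The members most like the rest were Rpl36, with a correlation of 0.89 to the mean of the other members, Rpl36a with 0.87, Rps27l with 0.87, and Rpl35 and Rpl12 with 0.85 each. Of the 81 members, 75 had a correlation above 0. At the other end were Rpl7l1 with -0.34, Rpl7 with -0.24, Rps29 with -0.23 and Rpl23a with -0.22. Rpl7 rose to 0.46 and Rplp0 from -0.04 to 0.63 without cHF+ROSI mouse 1, while Rpl7l1 was at -0.36 without it.

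**Figure D5:**
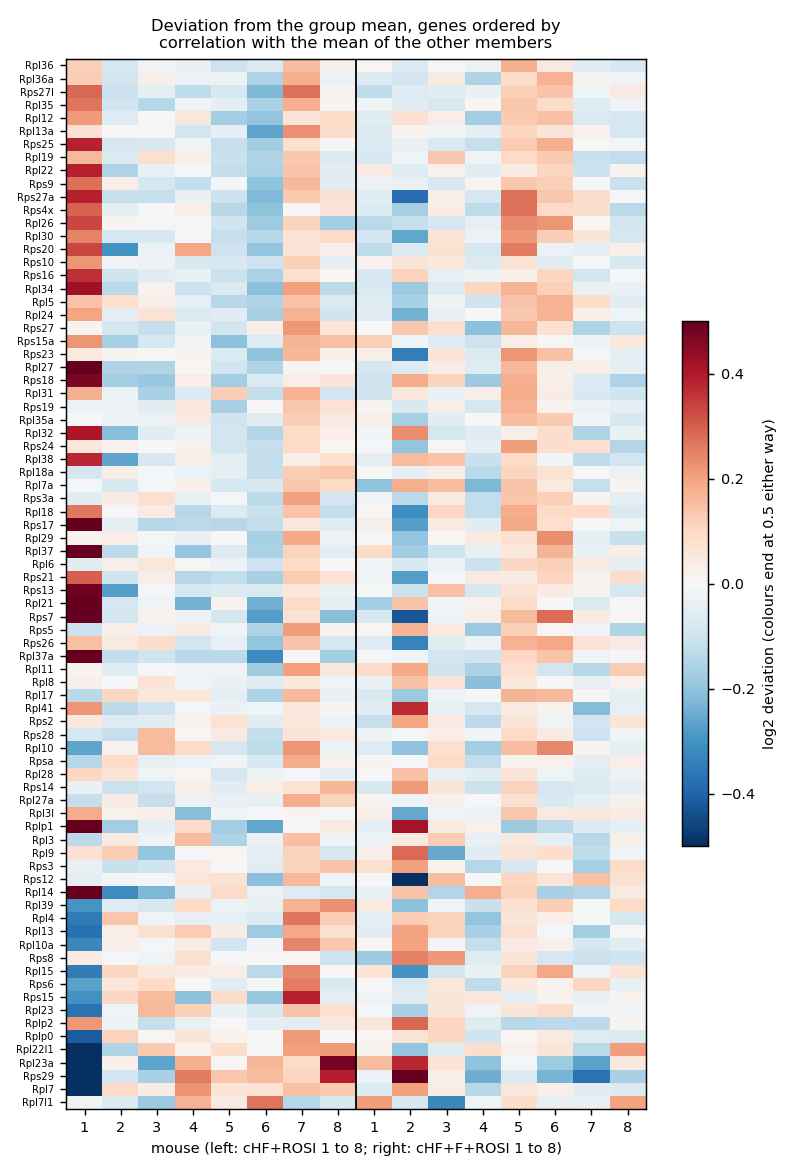
Deviation of each mouse from the mean of its group, in log2, for 80 of the 81 members ordered from the highest to the lowest correlation with the mean of the other members, with colours ending at 0.5 either way. cHF+ROSI mouse 1 has the highest deviation of all mice for 32 of these genes and the lowest for 16, and the first gene, Rpl36, has a correlation of 0.89 and the last, Rpl7l1, of -0.34.

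Other genes of translation, ribosome synthesis and its control were followed in lists drawn up by function. Of 18 genes outside the rule whose mRNAs carry the TOP motif, 4 were lower and 0 higher at an unadjusted p up to 0.05, with a median of -0.08, which was 0.00 with scale normalization. The 4 make up 22.2% of this list, where 4.66% of all genes were lower. Among the lower ones were Eif3s6, a subunit of initiation factor eIF3, at -0.19 (SE 0.07), Gnb2l1, the RACK1 scaffold on the small subunit, at -0.16 (SE 0.07), and Eef1g, of the elongation factor complex, at -0.10 (SE 0.04). None of the 4 passed adjustment, and 0 were called with the Cy5 channel alone, scale normalization or the authors' table.

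Of 59 genes of ribosome assembly and rRNA processing, 4 were lower and 0 higher, with a median of -0.05 and 46 negative fold changes. They were Rrs1 at -0.19 (SE 0.05), Ftsj3 at -0.18 (SE 0.07), Nol5 at -0.17 (SE 0.07) and Emg1 at -0.10 (SE 0.04). Rrs1 is needed to assemble the large subunit, and Nol5 is a core protein of the particles that methylate rRNA. The 4 make up 6.78% of the list, where 4.66% of all genes were lower, and none passed adjustment.

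RNA polymerase I, which transcribes the ribosomal RNA genes, and its factors had a median of 0.01 over 15 genes, with 1 gene lower and 1 higher. That is 13.3% of the list, where 8.37% of all genes were called. Ubtf, the factor that keeps these genes open, had -0.26 (SE 0.06, adjusted p 0.20 in limma, exact permutation p 0.0004662), and Znrd1, a polymerase subunit, 0.12 (SE 0.04). In the list of mTORC1 and S6 kinase signalling, 0 of 27 genes were lower and 2, or 7.41%, were higher, with a median of 0.01. These were Tsc1 at 0.18 (SE 0.06) and Tsc2 at 0.11 (SE 0.05), the pair that restrains mTORC1. An array of mRNA does not measure the activity of this pathway.

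Genes of other large complexes gave the background. Of 75 mitochondrial ribosomal protein genes, 1 was lower and 6 higher, with a median of 0.01, which was -0.05 with median centring and 0.07 in the authors' table. The smallest p were those of Mrpl54 at 0.19 (SE 0.05), Mrps35 at 0.17 (SE 0.05), Mrps22 at 0.11 (SE 0.05), Mrps33 at -0.12 (SE 0.05) and Mrps36 at 0.17 (SE 0.08). Of 42 proteasome genes, 1 was lower, Psmd11 at -0.25 (SE 0.08), and 2 were higher, Psma1 at 0.22 (SE 0.06) and Psme3 at 0.11 (SE 0.05). Calls made up 9.33% of the mitochondrial ribosomal protein list and 7.14% of the proteasome list, where 8.37% of all genes were called. The difference between these lists and the cytosolic ribosome was not tested.

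All 11 markers of skeletal muscle were detected, and 0 of 11 were called in either direction. Among markers of other cells, 4 of 6 of endothelium, or 66.7%, were lower at an unadjusted p up to 0.05, where 4.66% of all genes were, and 0 passed adjustment (smallest adjusted p 0.29 in limma). They were Emcn at -0.24 (SE 0.07), Cldn5 at -0.45 (SE 0.14), Cdh5 at -0.16 (SE 0.05) and Kdr at -0.27 (SE 0.12). The mean log2 ratio of the 6 ran from -0.20 to 0.01 in cHF+ROSI mice and from -0.49 to -0.16 in cHF+F+ROSI mice. Their part in the ribosomal protein result was not tested, and in muscle pieces fewer cells of a type and less RNA per cell cannot be told apart. Of 7 fibroblast markers 1, Lum, was lower, at -0.23 (SE 0.11). The slow fibre list had a median of -0.39 with 0 of 9 called and mouse means from -2.14, in cHF+F+ROSI mouse 2, to 0.68. Without both dimmest arrays its median was -0.04, with 5 of 9 genes negative and 1 called lower. The adipocyte list had a median of 0.25 with 0 of 8 called, and the red blood cell list 0.19 with 0 of 5. The macrophage list had -0.03 with 0 of 7 and the satellite cell list -0.16 with 0 of 4. Only 2 of 6 lymphocyte markers passed the filter, and 0 of 2 were called.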

How the data were processed

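Gastrocnemius RNA of 16 mice was hybridised to two-colour Agilent arrays against a common Cy3 pool, without dye swap. The authors scanned at 10% and 100% laser power, joined the scans, and deposited spot intensities from Feature Extraction 10.5.1.1 (per the file headers). They also deposited a table of log2 values, for which weak spots were dropped and the Cy5 median signals normalized to Cy3. Columns of that table for cHF+F+ROSI mice could be assigned to the group but not to single mice.

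From the deposited intensities, median signals were background-corrected by normexp (offset 50). Spots were kept where signal over background averaged at least 2 in both channels, spots flagged as outliers were set to missing, and loess was applied to log2(Cy5/Cy3) of each array. The offset and loess make fold changes of weak probes smaller. Spots of a probe were averaged, and lmFit and eBayes (limma 3.58.1, R 4.3.3) compared the groups, with p adjusted by Benjamini-Hochberg over 19398 probes. Exact two-sided permutation tests enumerated all 12870 splits of the mice. The chain was tested on simulated data. No 2 arrays were identical, and p-values measure the spread between mice.

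Members and lists were chosen with earlier results of these data known. Named were members with an adjusted p under 0.05 or an unadjusted p up to 0.05, the 10 largest fold changes, a list of stalk proteins, paralogs and members with other roles, members whose probes disagreed with 1 of them called, and from other lists up to 5 genes with an unadjusted p up to 0.05. Some genes that entered the counts are not reported here singly. Alternatives covered background correction, normalization, the Cy5 channel alone, the authors' table, filter, array weights, all probes of a gene, blocks for slide or replicate number, the methods' t-test, a stricter p and each mouse left out. Leaving out both dimmest arrays was added after seeing the data.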

Additional observations from a re-analysis of the deposited data

Results flagged for a closer look

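In the groups of 8 mice, a mouse was marked where its gap to the next mouse was large against the whole range of the group. Of 90 groups of values tested, 16 held such a mouse. The 4.5 that chance gives applies to independent genes not picked by their values. Many of the genes here were named for their p or fold change, and the members varied together, so these numbers cannot be compared. All but 1 of the 16 were cHF+ROSI mouse 1 or cHF+F+ROSI mouse 2, the dimmest array of each group by Cy5 signal over background, and the part of the signal in these values was not tested.

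In log2(Cy5/Cy3), cHF+ROSI mouse 1 stood above its group for Rps7 (0.157, next -0.373), Rps13 (0.290, next -0.146), Rps16 (0.0390, next -0.245), Rpl37 (-0.157, next -0.550), Rpl37a (0.603, next -0.368) and Rplp1 (0.771, next 0.364). It stood below its group for Rpl7 (-0.151, next 0.652), Rplp0 (-0.263, next 0.153) and Rps29 (0.465, next 1.102). The genes called lower at which it stood out were thus Rps7, Rps13, Rps16, Rpl37 and Rpl37a, and each had a smaller fold change without it.

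cHF+F+ROSI mouse 2 stood above its group for Rps29 (2.60, next 1.54) and Rplp1 (0.499, next 0.126). It stood below it for Rps12 (0.0621, next 0.610), Rps21 (-0.719, next -0.464), Rpl3l (-0.717, next -0.491) and the mean of the mitochondrial ribosomal protein genes (-0.0937, next -0.0178). The remaining value was the mean of the proteasome genes in cHF+ROSI mouse 7 (0.0940, next -0.0445), the mouse that was also highest in the mean of the cytosolic members.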

How the results depend on the processing

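No alternative called a member at an adjusted p of 0.05. The members' median fold change kept its sign in every alternative except the authors' table (0.000748), and it lay between -0.0899 and -0.0592 with each mouse left out. The numbers of calls moved more. Median centring gave 4 lower and 0 higher members, 1 in the large and 3 in the small subunit, a mean correlation of 0.658, and calls in the lists of 1 (TOP genes), 1 (RNA polymerase I), 2 (assembly), 1 (mTORC1), 1 (mitochondrial ribosome) and 1 (proteasome). Scale normalization gave 1 lower and 0 higher, 0 in the large and 1 in the small subunit, a correlation of 0.0884, and 0, 1, 2, 1 and 3 calls in the first 5 lists. The Cy5 channel alone gave 2 lower and 2 higher, 0 large and 2 small, and 0, 1 and 2 calls in the first 3 lists. The authors' table gave 2 lower and 3 higher, 0 large and 2 small, a correlation of 0.513, and 0 TOP, 1 assembly and 4 mTORC1 calls. The processed signals gave 1 higher member, 5 large subunit, 1 RNA polymerase I and 4 mTORC1 calls. No filter gave 2 TOP and 4 mTORC1 calls, array weights 5 large subunit, 1 mTORC1 and 5 proteasome calls, and the methods' t-test 6 proteasome calls. A slide block gave 1 higher member, 3 large subunit, 7 assembly and 1 mTORC1 calls. An unadjusted p up to 0.01 left 4 lower and 0 higher members, and no share of all genes at that limit is given to compare. Without both dimmest arrays, 1 member was higher, 3 large subunit genes were lower and the correlation was 0.419. The cause of these changes was not tested.

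Replicate numbers of the labels did not pair the mice: deviations of same-numbered mice correlated between -0.34 and 0.73. With the replicate block, 11 members were lower, or 13.6%, where 3.9% of all probes were. Of the 11 members, 3 belong to the large subunit. In the same setting 4 mTORC1 genes were called.

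With each mouse left out in turn, lower members ranged from 9 (without cHF+ROSI mouse 7) to 24 (without cHF+F+ROSI mouse 5), higher ones from 1 to 4, and lower large subunit genes from 1 to 12. Between 3.26% and 5.19% of all probes were lower in these runs. Small subunit genes ranged from 8 to 11 and the correlation from 0.181 to 0.325. Calls ranged from 2 to 5 for TOP genes, 2 to 3 for RNA polymerase I, 2 to 7 for assembly, 1 to 5 for mTORC1, 3 to 12 for the mitochondrial ribosome and 2 to 6 for the proteasome. Fold changes that turned sign ranged from -0.038 to 0.052 for Rplp0, -0.0059 to 0.041 for Rpsa, -0.058 to 0.020 for Rpl22, -0.11 to 0.034 for Rpl7, -0.064 to 0.011 for Rpl39 and -0.030 to 0.040 for Rpl10.

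Single genes turned sign elsewhere as follows. With median centring, Rplp0 was -0.028, Rpsa -0.035, Rpl3 -0.024, Rpl7 -0.034 and Rpl10 -0.040. With scale normalization, Rpl5 was 0.081, Rpl36a 0.00915, Rpl37 0.018, Rpl24 0.041, Rps29 -0.22, Rpl23a -0.071, Rplp2 -0.34, Rpsa -0.077, Rpl3l 0.070, Rpl11 -0.17, Rpl22 0.082 and Rps27l 0.23. With the Cy5 channel alone, Rpl23a was -0.044, Rplp2 -0.0010 and Rps6 0.019. In the authors' table, Rps6 was 0.029, Rpl22 0.034, Rpl22l1 0.028, Rps27 0.040, Rpl39 0.043 and Rpl13a 0.028. With array weights, Rplp0 was -0.015, Rpl22 0.0069, Rpl7 -0.086 and Rpl10 -0.0057. Without both dimmest arrays, Rps29 was -0.019, Rplp0 -0.048, Rpsa -0.0048, Rpl22 0.029, Rpl7 -0.14 and Rpl10 -0.000788. Signal over background in the Cy3 channel, between 1.78 and 2.02 on the arrays, limits weak probes more than the bright members.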
